A study of Saccharomyces cerevisiae with 27 samples.

Results

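Budding yeast expressing the processed p90 fragment of MGA2 were set against the same plasmid-bearing strain with the fragment repressed. The libraries were chosen by their labels alone: 3 of the group mga2p90, grown without doxycycline, and 3 of the group mga2p90-dox, grown with doxycycline, which are 6 of the 27 libraries of the study. All 6 are labelled S288C with the genotype pCM188-MGA2p90, a plasmid from which doxycycline represses the insert, and were grown in CSM. The labels used here do not give the state of the chromosomal MGA2 and SPT23 genes, and reads of a plasmid copy and of a chromosomal copy of MGA2 cannot be told apart. The fragment and the absence of the drug came together in every library of this comparison, so their effects cannot be told apart either. Poly-A RNA was sequenced. The authors' deposited table gives 6709 genes with 1 log2 fold change each (mga2p90 over mga2p90-dox) and 1 q value, a p value adjusted for the false discovery rate, and nothing per library. Variation among the 3 libraries of a group is thus visible only as the size of q, and sequencing depth is not known. The words rose and fell are used of genes with a q under 0.05.

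Mga2 and its homologue Spt23 are transcription activators made as precursors that are anchored in the membrane of the endoplasmic reticulum (ER). The ubiquitin ligase Rsp5 marks the precursor, the proteasome cuts it to the p90 form, and the Cdc48, Ufd1 and Npl4 complex frees p90 from its uncut, anchored partner. The released p90 enters the nucleus and activates OLE1, which encodes the acyl-CoA desaturase that introduces the double bond into palmitic and stearic acid. Processing of Mga2 responds to the packing of the lipids around its membrane helix, so the fragment is best known as the output of a sensor of lipid saturation, and in OLE1 it acts through the low oxygen response element (LORE).

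The sequences that follow are shown because they carry the elements that the results below return to. They were read from the RefSeq genome of build R64, from 5′ to 3′ on the strand of the gene named, with the searched letters on either strand in capitals, and distances are counted back from the first base of the coding sequence. The LORE was searched as ACTCAACAA. It lies 343 bases before OLE1, which rose by 2.18 on the log2 scale in the authors' deposited table, and 286 bases before PEX31, a peroxisome membrane protein gene that rose by 1.53. A further match stands in the 188 bases between MDM10 and SPO7, which are read away from each other and both rose, MDM10 by 1.35 and SPO7 by 0.89. The match between ASG1 and FKH1 also stands between genes read away from each other, but there the calls were opposite, with ASG1 at 0.67 and FKH1, a forkhead transcription factor of the cell cycle, at -1.16. RPG1, a subunit of translation initiation factor eIF3, holds a match too and was at -0.69. These genes were picked for display after their values were seen.
OLE1, chrVII:398228-398347, plus strand: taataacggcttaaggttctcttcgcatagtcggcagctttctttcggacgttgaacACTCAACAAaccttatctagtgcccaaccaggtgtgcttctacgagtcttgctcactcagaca
PEX31, chrVII:502642-502670, plus strand: ttctaggaatTTGTTGAGTcaaataattt
SPO7, chrI:135714-135742, plus strand: ttgtttcttcACTCAACAAtaaagtcaaa
ASG1, chrIX:102604-102632, plus strand: tgaccttctaTTGTTGAGTagttccttgc
RPG1, chrII:398624-398652, minus strand: gtgaacgagcTTGTTGAGTtgatgaccca

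The inositol element is the site of the Ino2 and Ino4 activators of phospholipid genes, searched here as CATGTGAA. INO1 holds it on both strands within 100 bases of promoter. Per the authors' deposited table INO1 was at 5.61. Single matches are shown for INO2, which encodes a subunit of the activator itself and was at 1.50, for ITR1, the inositol transporter, at 1.45, for CHO1, phosphatidylserine synthase, at 1.00, and for FAS2, the alpha subunit of fatty acid synthase, at 0.94. BIM1, a microtubule-binding protein gene, was at -0.71 and is shown as a called gene of the opposite direction with the same letters.
INO1, chrX:136096-136195, minus strand: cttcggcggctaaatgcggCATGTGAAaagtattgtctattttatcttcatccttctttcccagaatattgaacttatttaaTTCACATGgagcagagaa
INO2, chrIV:699595-699622, minus strand: gtacaacacaCATGTGAAtttttttcag
ITR1, chrIV:1445671-1445698, minus strand: ttccccaccgCATGTGAAaaaagctcga
CHO1, chrV:208618-208645, minus strand: cctttgagctTTCACATGgacccatcta
FAS2, chrXVI:108408-108435, plus strand: ctcccgcgttTTCACATGctacctcatt
BIM1, chrV:188082-188109, plus strand: tcgagtttacCATGTGAAccgaaggcat

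A last pair of sequences holds the Vhr1 element, through which the factor Vhr1 activates biotin genes at low biotin. The element was searched on both strands in the 500 bases before each coding sequence. The letters were AATCA, a spacer of any bases as long as in the capitals below, and TGACT or TGATT. It was found in 20 of 5983 promoters, or 0.334%, and in 5 of the 676 promoters of genes called higher, or 0.74%. Among those 5 were VHT1, the plasma membrane biotin transporter, at 3.77 in the authors' deposited table, and BIO5, which carries biotin precursors into the cell, at 4.75. The remaining 15 promoters belong to 11 genes not called, 3 not tested and 1 called lower. This element was added after the values of the biotin genes were seen.
VHT1, chrVII:620100-620129, minus strand: attatgAATCACTTTAGGATGATTtacaca
BIO5, chrXIV:733563-733592, minus strand: actctgAATCATACATTGCTGACTtggaat

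Across the transcriptome, the authors' deposited table calls 1165 of 5606 tested genes at a q under 0.05, which is 20.8%. With the fragment expressed 684 genes were higher, or 12.2% of those tested, and 481 were lower, or 8.58%. These percentages are the background against which the gene groups below are read. The rises were also the larger changes. Among finite called values the median rise was 1.00 and the median fall -0.76 on the log2 scale, 339 genes rose by at least 1 and 95 fell by at least as much, and 20 rose by at least 3 where none fell that far. The median of all tested genes was -0.02. Of the called genes, 12 are listed at 10 and 10 at -10, the values that stand for a level of 0 in the repressed or in the expressing group, and they carry no fold change here. The lowest q, 0.000304, is shared by 281 genes, so q does not rank them. Some genes named below share a locus in the table with 1 or more others, so that reads of overlapping genes may be mixed: UBX2, PSD1, ERG7, ATF2, OSH3, IZH1, PDI1, ASI1, HAC1, HEF3, MES1, BNA2, HXK1, TES1, DDR48, SSA1, HIS3, MET17, COQ2, YLR349W and YNL058C.

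MGA2 (YIR033W, chromosome IX, 416124 to 419465) was 13.3-fold higher in mga2p90 than in mga2p90-dox in the authors' deposited table, as labelled (log2 3.73, q 0.000304). OLE1 (YGL055W, chromosome VII, 398628 to 400160, 1 exon) was 4.52-fold higher, at the same q. SPT23 was at 0.32 with a q of 0.251. A list of 14 genes, made up of MGA2, OLE1, SPT23 and the machinery that releases the fragment, had 4 rises and 1 fall. These are 28.6% and 7.14%, against 12.2% and 8.58% of all tested genes, and the rises include MGA2 and OLE1 themselves. UBX2, which recruits Cdc48 to the ER membrane, rose by 0.93, and UFD1 by 0.59, while RSP5 fell by 0.87. CDC48 and NPL4 were not called, at 0.02 and 0.26. On the chromosome, the genes on each side of MGA2 were DAL3 of allantoin breakdown, at 1.88 with a q of 0.0818, and LYS1 of lysine synthesis, which rose by 0.64.

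Genes of fatty acid synthesis were called higher more often than the 12.2% of all tested genes, and no tested member fell. According to the authors' deposited table, 7 of 12 tested genes of fatty acid synthesis and acyl-CoA handling rose, or 58.3%, and their median log2 fold change was 0.84. ACB1, the acyl-CoA binding protein, rose by 1.75 and FAA4, a fatty acyl-CoA synthetase, by 1.39. ACC1, the acetyl-CoA carboxylase that makes malonyl-CoA, was at 0.98. FAS2 and FAS1, the subunits of the cytosolic synthase, were at 0.94 and 0.73, and ACS1, an acetyl-CoA synthetase, at 0.98. The synthetases FAA1 and FAA3 and the transporter FAT1 lay between -0.40 and 0.06 and were not called. In mitochondrial fatty acid and lipoate synthesis 3 of 12 rose, HTD2 at 1.38, GCV3 at 1.09 and MCT1 at 0.81.

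Biotin is the cofactor of acetyl-CoA carboxylase, and its genes gave the highest share of rises among the lists with at least 5 tested members. In the authors' deposited table, 6 of 8 tested genes rose and none fell, with a median of 2.84. BIO3 was 38.2-fold higher (log2 5.25), BIO5 26.8-fold higher (log2 4.75) and VHT1 13.6-fold higher (log2 3.77). BIO4 and BIO2, the last enzymes of biotin synthesis, were at 2.90 and 2.77, and BPL1, the ligase that attaches biotin to its enzymes, at 1.32. The regulators VHR1 and VHR2 were not called, at -0.27 and 0.24. BIO5, BIO4 and BIO3 are neighbours on chromosome XIV, and 221 bases separate BIO4 from BIO3, which are read away from each other. Of the enzymes that carry biotin, ACC1 and PYC1, a pyruvate carboxylase, rose, PYC1 by 0.90, while PYC2, ARC1, HFA1 and DUR12 lay between -0.51 and 0.13 and were not called.

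**Figure D1:**
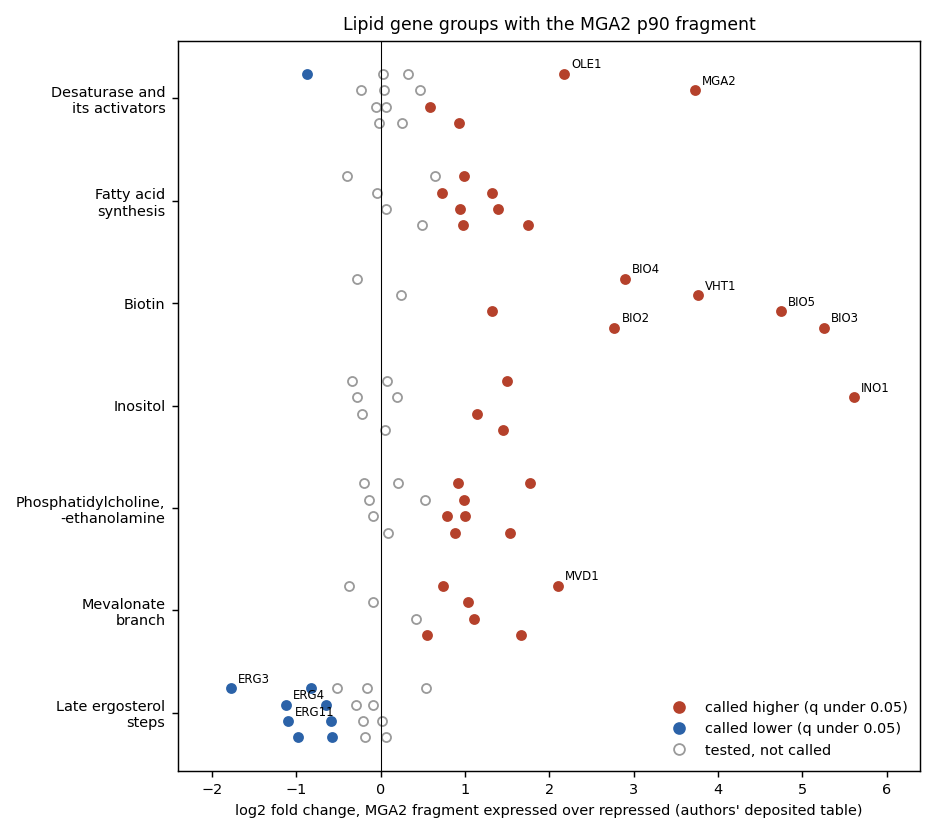
Log2 fold change of each tested gene, MGA2 fragment expressed over repressed, from the authors' deposited table, for 7 lists of lipid genes and biotin genes, 1 row per list. Each point is 1 gene, filled where called at a q under 0.05; vertical scatter within a row only separates points. INO1 at 5.61 and BIO3 at 5.25 lie farthest right, and the called genes of the late ergosterol steps lie left of 0 while those of the mevalonate branch lie right of it.

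Several inositol and phospholipid genes rose as well, INO1 by the largest finite amount in the table among called genes. INO1 (YJL153C, chromosome X, 134332 to 135933), which makes inositol phosphate from glucose phosphate, was 48.8-fold higher with the fragment in the authors' deposited table. Of 10 inositol genes 4 rose and none fell, and these were INO1, ITR1 and the genes for both activator subunits, INO2 at 1.50 and INO4 at 1.14. OPI1, which encodes the repressor of the same regulon, was not called at 0.20, nor was PIS1, phosphatidylinositol synthase, at 0.08. All 4 genes that rose hold CATGTGAA in the 250 bases before the coding sequence, and none of the other 6 does. The phosphatidylcholine and phosphatidylethanolamine list, given next, shows no such split. There 3 of the 7 genes that rose hold these letters and 4 do not, and CPT1 holds them and was not called.

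Phosphatidylcholine and phosphatidylethanolamine synthesis had 7 rises and no fall among 13 tested genes in the authors' deposited table, with a median of 0.79. Members of both routes to phosphatidylcholine were among them. On the methylation route OPI3, the methyltransferase of its last steps, rose by 1.77, CHO1 by 1.00 and PSD1, the mitochondrial decarboxylase, by 0.88, while CHO2, the first methyltransferase, was not called at 0.21. On the route from free choline and ethanolamine CKI1, choline kinase, rose by 1.54, EKI1, ethanolamine kinase, by 0.99, EPT1 by 0.92 and HNM1, the choline transporter, by 0.79. PCT1 and CPT1 of that route were not called, at -0.20 and 0.09.

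Of the genes for phosphatidate, triacylglycerol and cardiolipin, 9 of 22 rose and 1 fell in the authors' deposited table. ALE1, the acyltransferase for lysophospholipids, rose by 1.64. PAH1, the phosphatidate phosphatase, was at 1.20 and both subunits of the phosphatase that activates it also rose, NEM1 by 1.55 and SPO7 by 0.89. PGS1 and CLD1 of cardiolipin synthesis and remodelling were at 1.13 and 1.06. LRO1, which makes triacylglycerol from phospholipid, fell by 1.21. Phospholipases went the other way on balance, with 4 falls and 2 rises among 10: PLB3 was at -1.35, NTE1 at -1.25, FMP30 at -1.06 and SPO14, phospholipase D, at -0.68, against PLB2 at 1.68 and ISC1 at 1.33. Lipid droplet proteins had 1 rise (SCS3, 1.83) and 1 fall (ERG6) among 13, and flippases 1 fall among 11, CDC50 at -0.74. Elongation and sphingolipid genes had 5 rises and 2 falls among 32, near the background for rises, with ORM2, a regulator of serine palmitoyltransferase, at 1.24, ELO1 at 1.10 and TSC3 at -1.20.

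Sterol synthesis split along the pathway. In the mevalonate branch, which builds farnesyl diphosphate from acetyl-CoA, 6 of 9 genes rose and none fell in the authors' deposited table, with a median of 0.74. MVD1, mevalonate diphosphate decarboxylase, rose by 2.10, ERG10, acetoacetyl-CoA thiolase, by 1.67, ERG20, farnesyl diphosphate synthase, by 1.11, ERG13 by 0.74 and IDI1 by 0.55. The HMG-CoA reductases differed, with HMG2 called higher at 1.04 and HMG1 not called at -0.38. In the late steps, from squalene to ergosterol, 8 of 17 genes fell and none rose, with a median of -0.51. ERG3, the C-5 sterol desaturase, fell by 1.78, ERG4 by 1.12, ERG11, the lanosterol demethylase, by 1.10, ERG28 by 0.98 and ERG25 by 0.82. ERG5, ERG24 and ERG6 lay between -0.64 and -0.57. The squalene enzymes ERG9, ERG1 and ERG7 were not called, at -0.15, -0.29 and -0.21. With a minimum absolute log2 fold change of 1, 4 mevalonate genes were higher and 3 late genes lower. The difference between the branches has no test of its own here.

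Around the sterols, 5 of 21 genes of uptake, esterification and control rose and 2 fell in the authors' deposited table. DAP1, a haem protein that supports the lanosterol demethylase, rose by 1.48, UPC2, a sterol-sensing activator, by 0.91 and AUS1, a sterol importer, by 0.90. The steryl ester hydrolase YEH1 fell by 1.67 and the sterol acetyltransferase ATF2 by 1.17. Oxysterol-binding proteins rose in 3 of 7, OSH6 at 1.76, OSH3 at 0.69 and OSH7 at 0.68. HES1 of that family had the largest value of all these genes, 6.58, at a q of 0.231, so it was not called. The IZH genes, whose products are membrane receptors of the PAQR family and which respond to zinc and to fatty acids, rose in all 4 cases: IZH2 was 9.85-fold higher (log2 3.30), IZH4 8.69-fold higher (log2 3.12), IZH1 was at 1.48 and IZH3 at 0.55. With zinc transporters included, 7 of 14 rose and none fell, among them ZAP1, the activator of zinc genes, at 0.71, while the uptake transporters ZRT1 and ZRT2 were at 0.23 and 0.09 and not called.

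Several genes of folding and quality control in the ER rose. Per the authors' deposited table, 7 of 20 genes of ER chaperones and redox folding rose and none fell. KAR2, the ER chaperone BiP, rose by 1.11, its exchange factor SIL1 by 0.97, the disulfide isomerase PDI1 by 0.89 and ERO1, which reoxidises it, by 0.77. The rises were small, and with a minimum absolute log2 fold change of 1 only KAR2 passed in this list. Of 19 genes of ER-associated degradation 6 rose, or 31.6%, and none fell. The rises included the ubiquitin ligase HRD1 at 0.71. They also included ASI3 and ASI1, of the ligase complex of the inner nuclear membrane, at 0.81 and 0.61. HAC1, whose spliced mRNA encodes the activator of this response, was at -0.30 and not called, and the values do not separate its spliced from its unspliced form. Of translocation genes 3 rose and 3 fell among 28, of COPII genes 1 rose and none fell among 25, of COPI genes 1 rose and none fell among 16, and of O-mannosylation genes 1 rose and 5 fell among 28, led by PMT4 at -0.95. The letters CAGCGTG of the unfolded protein response element stand in 1.63% of promoters of genes called higher, 1.05% of those called lower and 0.986% of all promoters, KAR2 and LHS1 among them.

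**Figure D2:**
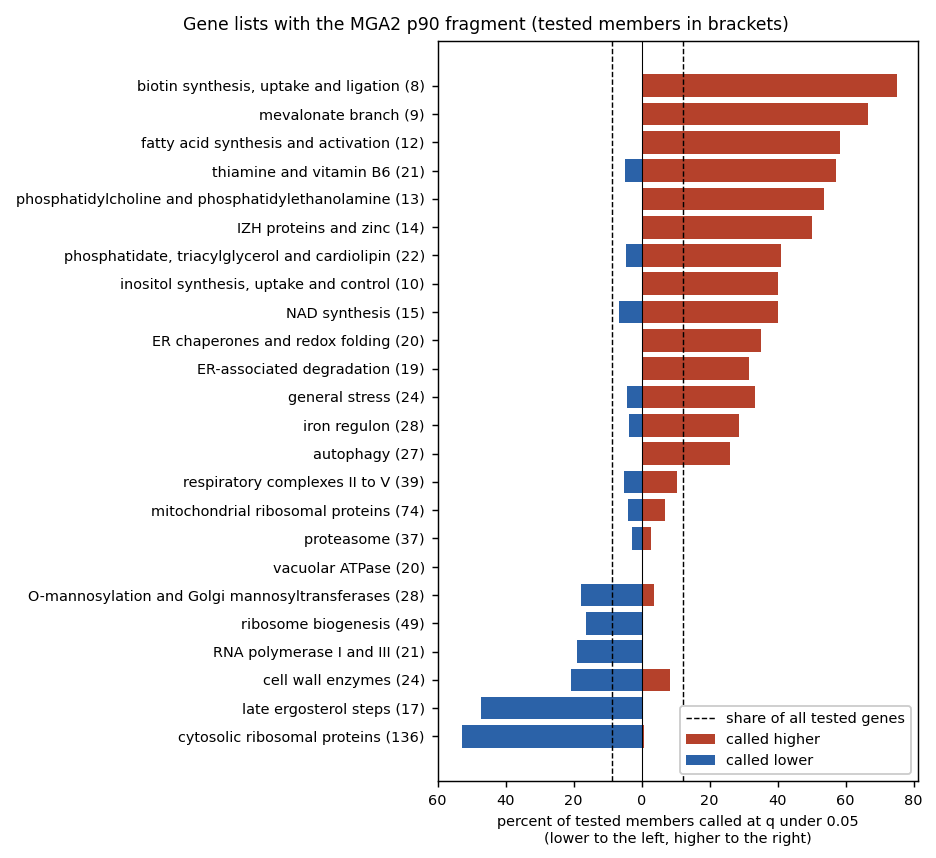
Percent of the tested members of 24 gene lists called higher (bars to the right) and called lower (bars to the left) with the MGA2 fragment at a q under 0.05, from the authors' deposited table; the number of tested members stands in brackets. Dashed lines mark 12.2% and 8.58%, the shares of all tested genes called higher and lower; biotin genes reach 75% higher and cytosolic ribosomal proteins 52.9% lower.

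Cytosolic ribosomal protein genes gave the largest number of falls among the 84 gene lists. In the authors' deposited table, 72 of 136 tested cytosolic ribosomal protein genes fell, or 52.9%, against 8.58% of all tested genes. The count depends on the threshold, with 25 falls at a q under 0.01 and 1, that of RPL18B, with a minimum absolute log2 fold change of 1. The median was -0.67, 132 of the 136 values were below 0, and the falls were small: the largest was that of RPL18B, at -1.12. The 1 call in the other direction was RPL41B, listed at 10. Most of these proteins are encoded by 2 near-identical genes whose reads can be split between them, so single values are uncertain. Of 58 pairs with both members tested, both fell in 18, 1 member fell in 30, neither was called in 9 and RPL41 held the called rise. In the pair RPL9 the copy RPL9A fell by 0.95, while RPL9B was at 0.03 and not called. Mitochondrial ribosomal proteins had 5 rises and 3 falls among 74 with a median of -0.01.

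The other steps of protein synthesis mostly had values below 0, with smaller shares called. The shares are to be read against 8.58% of all tested genes called lower and 12.2% called higher. Ribosome biogenesis genes fell in 8 of 49, or 16.3%, with no rise, and 46 of the 49 values were below 0, according to the authors' deposited table. SSF1 was at -1.14, DBP8 at -0.98 and UTP20 at -0.83. Subunits of RNA polymerases I and III fell in 4 of 21, or 19.0%, RPA34 by 0.87, with no rise. Of 37 translation factors 5 fell, or 13.5%, and 3 rose, or 8.11%. The rises were those of ANB1, the oxygen-repressed eIF5A, at 1.29, HEF3, the second form of elongation factor 3, at 1.00, and GCN2, the eIF2 kinase, at 0.65. Among 22 tRNA synthetases 21 values were below 0, but only MES1 (-0.68) fell, and GRS2, an alternative glycyl-tRNA synthetase, rose by 1.27. That is 4.55% in each direction, below the shares of all tested genes. The proteasome had 1 rise, its regulator RPN4 at 1.05, and 1 fall among 37, or 2.7% each, also below those shares. No gene of the vacuolar ATPase was called among 20. Depth and total RNA per cell are unknown, and values of this kind are relative to the whole transcriptome.

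**Figure D3:**
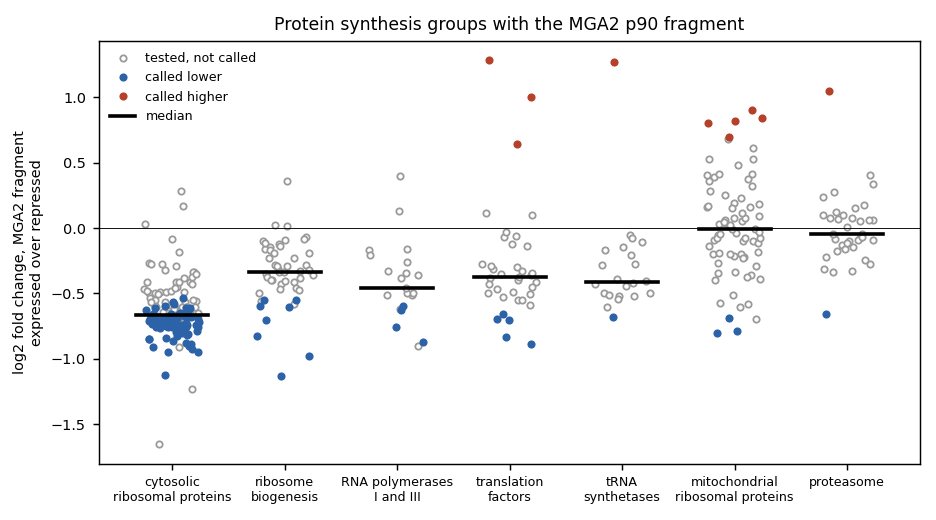
Log2 fold change of each tested gene (points) and list median (bars), MGA2 fragment expressed over repressed, for 7 lists, from the authors' deposited table; RPL41B, listed at 10, and RPL22A, listed at -10 and not called, are not drawn but enter the median. Cytosolic ribosomal proteins centre on -0.67, and mitochondrial ribosomal proteins and the proteasome centre on -0.01 and -0.05.

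Genes of several cofactor pathways besides biotin rose. In the authors' deposited table, 12 of 21 tested genes of thiamine and vitamin B6 rose and 1 fell, with a median of 1.59. SNZ1 and SNO1, which make pyridoxal phosphate and are read away from each other, were at 3.41 and 2.36, THI4 of thiamine synthesis at 3.07 and THI7, the thiamine transporter, at 1.89. THI12 is listed at 10. It is nearly identical to THI5, THI11 and THI13, and SNZ2 to SNZ3, so their reads can be split. PHO3, a phosphatase that releases thiamine from its phosphate, fell by 1.35. In NAD synthesis 6 of 15 rose and BNA3 fell by 0.74, with BNA2, the first enzyme of the route from tryptophan, at 1.50 and BNA1 at 1.14. Haem synthesis and breakdown had 4 rises and no fall among 15: HEM15, ferrochelatase, was at 1.66, HMX1, haem oxygenase, at 1.46, HEM13, the oxygen-requiring coproporphyrinogen oxidase, at 1.14 and HEM2 at 0.85. Of 28 iron regulon genes 8 rose and 1 fell, with TIS11, which promotes decay of mRNAs of iron-using proteins, 10.4-fold higher (log2 3.38).

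Carbon metabolism was called in both directions. Of 33 glycolysis and fermentation genes 11 rose, or 33.3%, and 3 fell, or 9.09%, in the authors' deposited table. Of all tested genes 12.2% were called higher and 8.58% lower. The isozymes split: HXK1 rose by 2.56 and HXK2 fell by 0.87, TDH1 rose by 2.47 while TDH2 and TDH3 were not called at -0.69 and -0.22, PDC5 rose by 1.74 while PDC1 was not called at -0.74, and ADH1, the main fermentative alcohol dehydrogenase, fell by 2.57 while ADH5 rose by 0.81. The TDH genes share near-identical sequence and their reads can be split. In the TCA and glyoxylate list 3 rose, LSC2 by 1.76 and ICL1, isocitrate lyase, by 1.07, and 5 fell, ACO1 by 1.09. Respiratory complexes had 4 rises and 2 falls among 39, close to the background. Beta-oxidation had 5 rises and 2 falls among 13, or 38.5% and 15.4%, with TES1, a peroxisomal thioesterase, at 1.53 and DCI1 at -1.64. Of 29 peroxisome biogenesis genes 5 rose, or 17.2%, and none fell, with PEX32 at 1.60, PEX31 at 1.53, PEX13 at 1.46 and PEX28 at 0.98. PEX28, PEX31 and PEX32 encode related membrane proteins that regulate peroxisome size and number.

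The lists of stress and turnover genes differed in their share of rises, to be read against 12.2% of all tested genes. General stress genes had 8 rises, or 33.3%, and 1 fall among 24 in the authors' deposited table. The rises included CTT1, the cytosolic catalase, at 2.55, DDR48 at 1.63 and the activator MSN4 at 1.22. Heat shock proteins had 6 rises, or 20.7%, led by HSP26 at 1.90, and 1 fall, SSA2 at -1.13, among 29. Of these 29 values 15 were below 0, and SSA1 and SSA2 share sequence. In the oxidative stress list GTT2, a glutathione transferase, rose by 2.45 and GPX2, a glutathione peroxidase, fell by 2.24. That list had 5 rises and 2 falls among 32, or 15.6% and 6.25%, near the 12.2% and 8.58% of all tested genes. Autophagy genes rose in 7 of 27, or 25.9%, with no fall. Among them were ATG15, the lipase of the vacuole, at 1.76, ATG22 at 1.74 and ATG8 at 1.21. Vacuolar hydrolases rose in 3 of 12, PRB1 by 1.50. The sulfur list had 4 rises and 6 falls among 33. There SAM2 was called higher at 1.74 and its paralogue SAM1 lower at -0.78, and MET5 of sulfite reductase fell by 1.74. Of 12 histone genes and partners 3 fell, SCM3, the chaperone of the centromeric histone, by 2.70, HTB2 by 0.71 and HHF2 by 0.59. The 28 genes encoded in mitochondria were all untested.

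Genes of the cell surface were called in both directions, to be read against 12.2% of all tested genes called higher and 8.58% called lower. The list of flocculins, agglutinins and their regulators had 8 rises, or 53.3%, and 1 fall among 15 in the authors' deposited table. Another 6 were not called. FLO1 was at 2.40, the repressors NRG2 and NRG1 at 1.87 and 0.75, and the agglutinin genes AGA1 and SAG1 at 1.11 and 0.99. MSS11, an activator of FLO11, fell by 0.85. Among mannoproteins DAN4, TIP1 and TIR2 rose by 2.19, 1.98 and 1.88, and CWP1 fell by 1.98. Of 24 wall enzymes 5 fell, or 20.8%, 2 rose, or 8.33%, and 17 were not called. UTR2 fell by 1.38, EXG2 by 1.09 and FKS1, the main glucan synthase subunit, by 0.87, whereas its alternative GSC2 rose by 0.89. FHN1 of the eisosome membrane compartment was 9.43-fold higher (log2 3.24), and NCE102 of the same compartment fell by 0.61. The list of that compartment had 3 rises and 2 falls among 19, or 15.8% and 10.5%, near the background.

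Amino acid and nucleotide genes were called in both directions in the authors' deposited table. Outside the sulfur and branched-chain lists, 11 of 51 genes of amino acid synthesis rose, with ARG4, argininosuccinate lyase, at 1.68, ARO10, the decarboxylase of aromatic keto acids, at 1.52 and LYS21, homocitrate synthase, at 1.11, and 3 fell, SER3 by 1.19 the most. In the branched-chain list OAC1, LEU1 and LEU9 fell, OAC1 by 1.64, and BAT2 rose by 0.82, among 12. Genes of purines and one-carbon units had 4 rises and 1 fall among 24, and the rises included GCV1 at 1.08, GCV2 at 0.92 and GCV3 of the glycine cleavage system. Pyrimidine genes went the other way, with 4 falls, FUR4, the uracil permease, by 1.10, and 1 rise among 17.

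Further lists are given by their counts in the authors' deposited table, to be read against 12.2% of all tested genes called higher and 8.58% called lower. Of 12 daughter cell separation genes 4 rose, with the chitinase CTS1 at 1.16, and of 22 pheromone genes 4 rose, with KAR4 at 1.12. Of 29 sporulation genes only 13 were tested, and 4 of these rose, among them DMC1, the meiotic recombinase, at 2.17 and SPO11 at 1.45. Whether such a gene was tested may depend on its level in the higher group, so that share is not set against the 12.2%. Mitochondrial import had 5 rises among 28, TIM8 at 1.45 the largest, and the glycogen and trehalose list had 5 rises, GAC1 at 1.89 the largest, and 1 fall among 20. Nitrogen regulation had 4 rises among 22, with UGA2 at 1.38, and the pentose phosphate list 4 among 16, with NQM1, a transaldolase, at 2.48. Cyclins and cell cycle regulators had 3 falls and no rise among 25, CLB2 by 0.94, SWI5 by 0.62 and CDC5 by 0.56.

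Fold changes between groups of the same strain cannot show its mating type or which marker genes it carries, so the values below do not check it. Of the markers, 3 of 4 alpha-specific genes were not called and SAG1 rose, and 2 of 7 a-specific genes were tested and neither was called. LEU2 and LYS2 have no tested value in the authors' deposited table. URA3 was at -0.52 and HIS3 at 0.21, neither called, and MET17 fell by 1.22.

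Beyond these groups, the authors' deposited table puts the largest finite rises at HXT6, a hexose transporter, at 5.11, SPS100, a spore wall gene, at 4.24, AAD10, a putative aryl-alcohol dehydrogenase, at 4.17, the carbonyl reductase gene YGL039W at 3.81, SEO1, a putative permease, at 3.71, YJR154W at 3.64, GID10, a substrate receptor of the GID ubiquitin ligase, at 3.57 and YOR387C at 3.31. HXT6 is nearly identical to HXT7, which was at 0.39 and not called, so reads may have been split between them. The largest falls beside those named above were MLO50 (YLR049C) at -2.55, YOL014W at -2.32, QCR10, a subunit of respiratory complex III, at -2.07, YNR014W at -2.06, NFG1 at -1.92, YLR349W at -1.78, YNL058C at -1.74 and AQR1, a multidrug transporter, at -1.71. Multidrug transporters and their partners were evenly divided, with 6 rises, led by PDR12 at 1.81, and 6 falls among 28.

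The SPT23 fragment offers the nearest comparison, since Spt23 is the homologue of Mga2 and was expressed from a plasmid in the same way, in 3 libraries against 3 with doxycycline. These share no library with those of the MGA2 fragment. With the SPT23 fragment 12.4% of 5626 tested genes were called in the authors' deposited table, 6.86% higher and 5.49% lower. Among 5476 genes tested in both comparisons 145 were called higher with both, 21.8% of the 665 higher with MGA2 and 39.8% of the 364 higher with SPT23. Another 65 were called lower with both, 13.8% of the 472 lower with MGA2 and 21.3% of the 305 lower with SPT23. Of the 210 genes with finite values called the same way, 128 had the larger absolute value with MGA2. Across 5443 genes the log2 fold changes had a Pearson correlation of 0.30 and a Spearman correlation of 0.26. Genes are not independent replicates, and the drug was absent in the expressing group and present in the repressed group of both comparisons.

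Shared and separate responses differed by pathway in the authors' deposited table, as a description, because the difference between the fragments could not be tested without values per library. OLE1 was at 2.18 with MGA2 and 1.11 with SPT23, and INO1 at 5.61 and 1.72. The biotin genes BIO3, BIO5, BIO4 and BIO2 were called higher with both fragments, but VHT1 was at 3.77 with MGA2 and -0.05 with SPT23. The mevalonate branch had 6 of 9 genes called higher with MGA2 and 0 of 9 with SPT23, the late ergosterol steps 8 of 17 lower with MGA2 and 0 with SPT23, where ERG5 was higher at 0.52. ER chaperones had 7 rises among 20 with MGA2 and none among 19 with SPT23, and ribosomal proteins 72 falls among 136 and 2 among 135. In the other direction, respiratory complexes had 4 rises with MGA2 and 17 with SPT23 among 39, and the sulfur list had 6 and 16 falls among 33. Of 91 listed Ty proteins 5 of 19 tested rose with MGA2 and 16 of 23 with SPT23. Ty copies share sequence, so their reads can be split and they do not count as separate genes. Of the 665 genes called higher with MGA2, 19 were called lower with SPT23, as were 305 of all 5476 genes tested in both. Among the 19 were MGA2 itself (3.73 and -1.46), whose reads may come from the plasmid, and YGL039W (3.81 and -1.39). RTS3 (2.55 and -0.80), SAM2 (1.74 and -0.62) and ATF1, an alcohol acetyltransferase (1.70 and -0.61), were others. Of the 472 genes called lower with MGA2, 10 were called higher with SPT23, as were 364 of all 5476. Among the 10 were MLO50 (-2.55 and 0.97) and COX5A (-0.84 and 0.60).

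**Figure D4:**
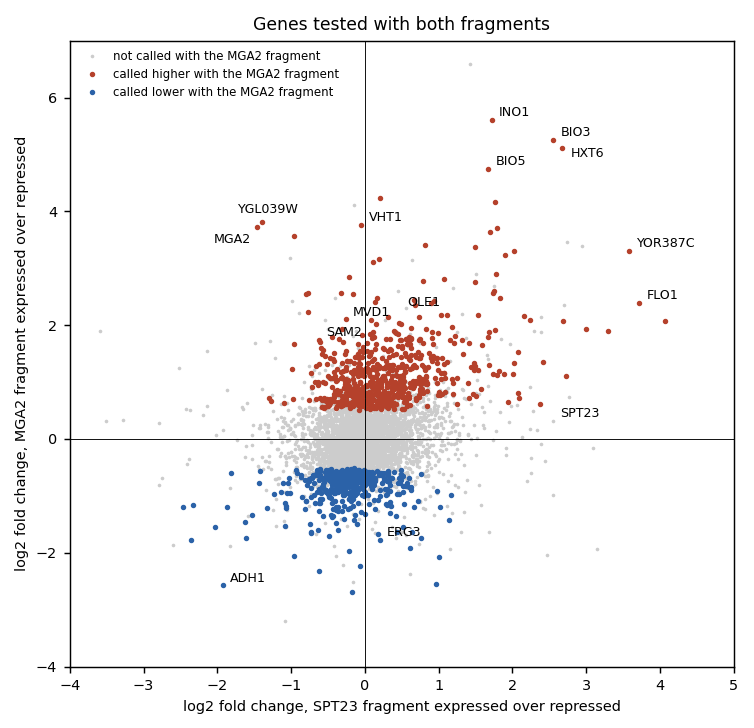
Log2 fold changes from the authors' deposited table of genes tested with both fragments, MGA2 fragment expressed over repressed on the vertical axis and SPT23 fragment expressed over repressed on the horizontal axis; values listed at 10 or -10 are not drawn, and colour gives the call with the MGA2 fragment. MGA2 lies at 3.73 and -1.46, and INO1 and BIO3 lie at 5.61 and 1.72 and at 5.25 and 2.56.

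Along the chromosomes, genes within 25 kb of a chromosome end were called higher in 47 of 168 tested cases, or 28.0%, and lower in 8, or 4.76%, in the authors' deposited table. Farther in, 12.2% of 5159 tested genes were higher and 9.05% lower. Only tested genes enter these shares, and whether a gene was tested may depend on its level in the higher group. Of 24 seripauperin genes, for example, 2 were tested. The share near the ends thus does not describe all genes there, and its difference from the share farther in was not tested. The COS family lies mostly near the ends and its copies share sequence. It had 4 rises and no fall among 8 tested members of 11, COS7 at 2.15 the largest. Of 4803 pairs of adjacent coding genes that do not overlap, both were higher in 104, or 2.17%, both were lower in 38, or 0.791%, and 1 was higher and the other lower in 94, or 1.96%. Both were higher in 3.00% of 1232 pairs read away from each other, 2.07% of 2273 read the same way and 1.54% of 1298 read towards each other. No share expected of unrelated neighbours was worked out, so these counts do not show whether called genes cluster. The pairs read away from each other included BIO4 and BIO3, SNO1 and SNZ1, COQ2 (2.15) and MVD1, ALE1 and HEM15, SOH1 (1.80) and SCS3, and PKH1 (1.49) and IZH1, which were chosen for naming after their values were seen. Without a stated use of strand, reads of adjacent genes whose transcripts overlap cannot be told apart.

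The promoters were searched for 20 motifs on both strands in the 250 bases before 5984 coding sequences, and the shares below are descriptions. The shortened LORE core ACTCAAC was found before 4.29% of the 676 genes called higher in the authors' deposited table, 1.27% of the 474 called lower and 2.07% of all. The 29 higher genes with that core include MGA2, whose reads may come from the plasmid, so its call does not describe its chromosomal promoter. Others with the core are ACB1, ERG20 and LAM5, a sterol transfer protein gene at 1.36, as well as MDM10 and SPO7. In the full form ACTCAACAA it stands in 10 promoters within 250 bases, and within 500 bases, where the OLE1 match lies, in 23 of 5983, of which 6 belong to genes called higher and 2 to genes called lower. The inositol element core CATGTG was found before 10.5% of the genes called higher, 4.85% of those called lower and 5.58% of all promoters, and its longer form CATGTGAA before 2.37%, 0.422% and 0.602%. CATGTGAA is part of what CATGTG finds. Of the 36 promoters with the longer form 16 belong to genes called higher and 2 to genes called lower, BIM1 and RPL33B, and the 34 tested genes had a median of 0.65.

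Among the other motifs, some had their higher share before the genes called lower and some before the genes called higher. The ribosome biogenesis motif named RRPE, searched as AAAATTTT, was found before 17.7% of the genes called lower in the authors' deposited table, 3.11% of those called higher and 8.66% of all. It stands before 39 of the 49 ribosome biogenesis genes, of which 4 of the 8 that fell, and before 9 of 137 ribosomal protein genes. The PAC motif GATGAGAT gave 4.22% of lower, 1.78% of higher and 3.64% of all promoters. The stress element AGGGG was found before 24.0% of higher, 16.0% of lower and 18.8% of all, and the Gcn4 site TGACTCA before 3.85%, 2.53% and 2.17%. For the CCAAT box all 3 shares were 35.4%, and the sterol element TCGTATA gave 4.29% of higher, 3.16% of lower and 3.81% of all. The remaining motifs are the iron, heat shock, zinc, proteasome, pleiotropic drug and sulfur elements and the Rox1, Rap1, Ste12 sites, besides the unfolded protein response element given above.

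**Figure D5:**
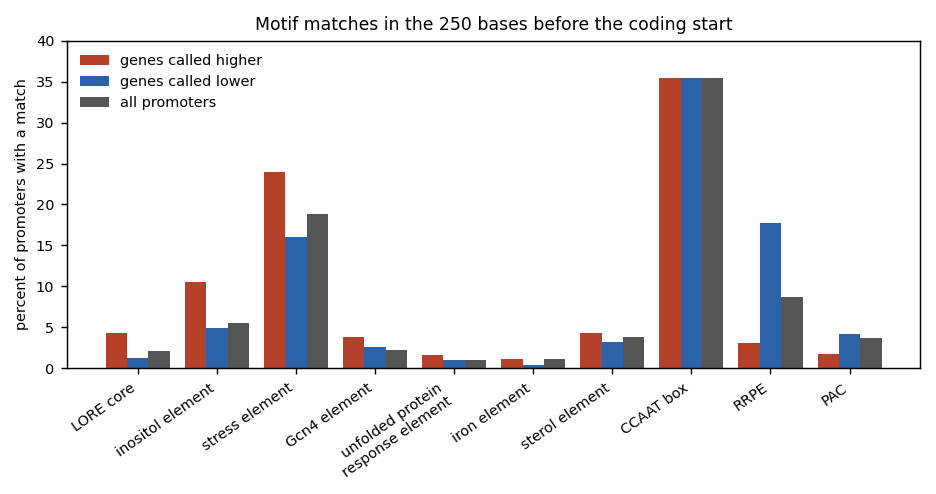
Percent of promoters (250 bases before the coding sequence, both strands) with a match to each of 10 motifs, for genes called higher and called lower in the authors' deposited table with the MGA2 fragment, and for all promoters. For the LORE core and the inositol element the bar of genes called higher (4.29% and 10.5%) is above those of genes called lower and of all promoters, as it also is for the stress, Gcn4, unfolded protein response, iron and sterol elements; for RRPE (17.7%) and PAC the bar of genes called lower is the highest of the 3.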

How the data were processed

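RNA of 27 yeast libraries was sequenced, and 6 of them enter the comparison described above. Trimmomatic 0.33, TopHat2 2.0.14 and Cuffdiff 2.2.1, with genome build R64, are named in the submitters' processing notes; their settings, the annotation and the handling of strand were not given in the sources used here. Per the file headers, the authors' deposited table gives log2 differential expression and a q-value, the p-value after adjustment, for 5 comparisons, and 4 of its lines are not analysed here. Values of 10 or -10 were read, from the values, as 1 group at 0, and a q of 1 as not tested. No counts or values per library were used, so depth is unknown, no test was run and no SD or n is given.

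By systematic name 6022 genes matched RefSeq R64, which gave symbols, positions, promoters and the sequences shown. Members of 84 gene lists were counted by the authors' call at q under 0.05. The members, lists and motifs were chosen with earlier results of these data known. Named genes are MGA2, OLE1, SPT23 and the neighbours of MGA2, the 15 largest finite rises and falls, members of lists of up to 17 genes, and up to 6 called members per direction of longer lists, with paralogue pairs called differently; any other gene named was chosen after its values were seen. Counting and motif steps were tested on simulated data and run in Python 3.11.15 with pandas 2.3.3. Alternatives were other q thresholds, a minimum change, centring on the median and leaving out non-finite, non-coding or overlapping genes.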

Additional observations from a re-analysis of the deposited data

How the results depend on the processing

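No paired analysis was possible because the table holds no values per library, and for the same reason leaving out a replicate could not be run. At a q under 0.01 the authors' deposited table gives 628 called genes in place of 1165, 431 higher and 197 lower, and with a minimum absolute log2 fold change of 1 it gives 456, of which 351 were higher and 105 lower. At a q under 0.1 there were 1591. The number of lists with more falls than rises was 21 and became 13 with the minimum change, under which the translation factor, TCA and N-glycosylation lists had more rises than falls and the sterol uptake list more falls than rises. COPII genes had more falls and the NADH and glycerol list more rises at a q under 0.1, and mitochondrial ribosomal proteins had more falls at 0.01. Genes called higher with both fragments numbered 82 and lower with both 25 at a q under 0.01, in place of 145 and 65, an alternative chosen after seeing the data. So was the recount near chromosome ends, where 19.0% against 7.68% elsewhere were higher at that threshold. The shares near the ends and elsewhere are of tested genes only. In a window of 500 bases the shares of promoters were 7.84% for the LORE core, 19.1% for CATGTG, 4.29% for CATGTGAA (genes called higher) and 22.8% for RRPE (genes called lower). ER chaperones had 4 rises at a q under 0.01 and 1 with the minimum change, in place of 7, genes of ER-associated degradation 3 and 0 in place of 6, and late ergosterol genes 5 and 3 falls in place of 8. Ribosome biogenesis genes had 3 and 1 falls in place of 8, while all 6 rises of biotin genes passed both. The numbers called with coding genes only, with overlapping genes left out and with non-finite values left out were within 1.5 times of the 1165. Centring on the median gave 3.75 for MGA2 and 2.19 for OLE1, and since calls rest on the authors' q it cannot change them.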

Other observations

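The called genes that the authors' deposited table lists at 10 with the MGA2 fragment number 12, RPL41B and THI12 among them, and those at -10 number 10, among them PHM6, a gene of the phosphate response. YDR246W-A was called at -10 with the MGA2 fragment and at 10 with the SPT23 fragment, and MCO6 at 10 and at -10. RSO55, whose locus is shared with other genes, is listed at 19.0 with a q of 0.339 with the MGA2 fragment and at -17.7 with a q of 0.383 with the SPT23 fragment, so it was called with neither.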
